A study of Homo sapiens with 6 samples.

Results

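The genes described here are 54 interferon-stimulated and interferon pathway genes, among 60623 genes for which the files give a level. They were listed by name, with earlier results of these data known, so counts over them are descriptions. Each symbol was found in exactly 1 row of the table. Levels are FPKM, that is, fragments per unit of gene length and of library depth. They come from RNA-seq of total RNA from cells whose label is Huh7, the name of an established human liver cancer line. There were 3 libraries with the genotype label SRSF10 knockdown, which the series title ties to a short hairpin RNA, and 3 control libraries with the genotype label WT. The treatment label of all 6 libraries is NA. Whether a control hairpin was put into the WT cells is not in the labels, so effects of a hairpin or its delivery and effects of lower SRSF10 cannot be told apart. The labels name neither separate cultures nor clones. The p-values therefore measure only the spread between these libraries, which may be technical. SRSF10 encodes an SR-type regulator of splicing, and the comparison asks how the level of each interferon gene differs when it is lowered.

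Interferons are secreted proteins by which cells signal that nucleic acid of a virus, or misplaced nucleic acid of their own, has been sensed. Type I interferons bind IFNAR1 and IFNAR2, and type II interferon binds IFNGR1 and IFNGR2. The kinases JAK1, JAK2 and TYK2 on these receptors switch on STAT proteins. A complex that holds STAT2 and IRF9 then binds the interferon-stimulated response element, a DNA motif before many antiviral genes, while STAT dimers bind the gamma-activated site. Hepatocytes are targets of hepatitis viruses, and interferon has been used against those viruses. No interferon treatment is labelled in these samples.

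Several promoters of these genes carry letters of the response element in the 250 bases before the RefSeq gene start (assembly GRCh38.p14). The motif was searched as GAAANNGAAA and the gamma-activated site as TTCNNNGAA, each on both strands and with overlapping matches kept. RefSeq promoters were matched by symbol for 40 of the 54 genes, and only the first entry listed was kept for each gene. The response element letters stood in 17 of those 40 (42.5%), against 1061 of all 35116 promoters (3.02%). The gamma-activated letters stood in 10 of 40 (25%), against 6.57% of all promoters. A match is a description of letters and not of binding. The 3 sequences below belong to genes whose level was higher in the knockdown, and they are shown as those whose promoter has the response element letters. They are printed 5′ to 3′ on the strand of the gene, with the matches in capitals. The regions are chr1:89065209-89065458 (minus strand) for GBP1, chr2:162318685-162318934 (minus strand) for IFIH1 and chr11:320861-321110 (minus strand) for IFITM3.
GBP1: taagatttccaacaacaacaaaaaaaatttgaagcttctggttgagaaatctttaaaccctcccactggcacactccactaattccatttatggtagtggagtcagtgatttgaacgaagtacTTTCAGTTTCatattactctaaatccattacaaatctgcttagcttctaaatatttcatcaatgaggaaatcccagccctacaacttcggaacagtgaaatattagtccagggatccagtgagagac
IFIH1: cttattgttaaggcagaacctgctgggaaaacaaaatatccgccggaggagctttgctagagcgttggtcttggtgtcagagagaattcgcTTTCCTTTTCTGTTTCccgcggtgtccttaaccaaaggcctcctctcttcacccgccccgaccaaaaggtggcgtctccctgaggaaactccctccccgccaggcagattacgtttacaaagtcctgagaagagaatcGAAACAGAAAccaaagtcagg
IFITM3: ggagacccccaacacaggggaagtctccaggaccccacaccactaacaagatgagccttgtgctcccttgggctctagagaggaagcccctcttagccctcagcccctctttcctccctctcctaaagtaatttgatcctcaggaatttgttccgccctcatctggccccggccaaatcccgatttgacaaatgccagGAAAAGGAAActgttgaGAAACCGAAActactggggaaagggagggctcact
Counted back from the gene start, the match of GBP1 begins at base -127, those of IFIH1 at -159, -153 and -21, and those of IFITM3 at -52 and -35. The matches of IFIH1 at -159 and -153 overlap.

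The next 3 promoters are shown for contrast, because they carry the same kind of letters before genes whose level was not called different. Their regions are chr1:1013247-1013496 (plus strand) for ISG15, chr12:112938224-112938473 (plus strand) for OAS3 and chr10:89327747-89327996 (plus strand) for IFIT3.
ISG15: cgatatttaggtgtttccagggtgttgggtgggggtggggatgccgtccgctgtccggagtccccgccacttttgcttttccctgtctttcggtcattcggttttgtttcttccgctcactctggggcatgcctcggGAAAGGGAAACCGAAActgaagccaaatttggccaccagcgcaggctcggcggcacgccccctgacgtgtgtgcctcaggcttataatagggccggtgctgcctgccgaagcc
OAS3: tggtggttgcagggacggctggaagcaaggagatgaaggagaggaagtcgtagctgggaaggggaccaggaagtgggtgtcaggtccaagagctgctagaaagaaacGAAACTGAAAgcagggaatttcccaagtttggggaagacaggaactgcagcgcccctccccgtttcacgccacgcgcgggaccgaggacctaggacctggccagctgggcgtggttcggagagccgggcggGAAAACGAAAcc
IFIT3: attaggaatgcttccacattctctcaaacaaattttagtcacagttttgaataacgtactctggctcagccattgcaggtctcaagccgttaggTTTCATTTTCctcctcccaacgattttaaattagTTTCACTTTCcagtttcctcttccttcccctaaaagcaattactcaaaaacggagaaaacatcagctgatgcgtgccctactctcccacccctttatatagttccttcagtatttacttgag
The matches begin at -113 and -107 in ISG15, where they overlap, at -143 and -12 in OAS3, and at -156 and -122 in IFIT3. Among genes with a RefSeq promoter, the response element letters stood in 3 of the 7 that were higher and in 0 of the 1 that was lower (IFNGR1). They stood in 6 of the 18 tested and not called, and in 8 of the 14 with levels too low to test. The region used for IFNGR1 (chr6:137219197-137219446, minus strand) lies wholly inside the span that GENCODE gives the gene, 137197484 to 137219449. The 0 of 1 therefore says nothing about the bases before that span. Some other regions, such as those of IFITM3, ISG15 and IFI16, also lie inside the GENCODE span of their gene. The gamma-activated letters stood in 2 of the 7 higher genes, GBP3 at -15 and IRF1 at -124.

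The level of the targeted gene, SRSF10 on the minus strand of GRCh38 chromosome 1 (23964804 to 23980927, ENSG00000188529), read 10.6, 10.8 and 10.6 FPKM in the knockdown libraries, against 18.6, 19.5 and 19.8 FPKM in the controls. There was no overlap, and the knockdown mean was 44.8% lower. In the limma fit the log2 fold change came to -0.80, with an SE of 0.0379 and an adjusted p of 0.000166. An exact two-sided permutation test over the 6 libraries gave p = 0.1, the smallest that 3 against 3 allows. Depth, estimated from the steps between low FPKM values, was 12720000 to 14360000 fragments per library. Of the 8 liver and hepatocellular carcinoma markers checked, 7 were under 1 FPKM in every library, and APOA2, TTR and GPC3 were listed at 0. ALB, albumin, was at 0.624, 0.814 and 0.434 FPKM in the knockdown libraries and at 0.162, 0.115 and 0.172 FPKM in the controls. AFP was at 0.872 to 0.892 FPKM in the knockdown libraries and at 0.669 to 0.958 FPKM in the controls. Only HNF4A, a liver transcription factor, passed 1 FPKM, so the defining liver markers are largely absent from cells labelled Huh7. SERPINA1, alpha-1 antitrypsin, was at 0.539, 0.674 and 0.655 FPKM in the knockdown libraries and at 0.0993, 0.144 and 0.0753 FPKM in the controls, and with no filter it was higher (adjusted p = 0.0127). Of the 4 epithelial markers, the keratins KRT8 and KRT18 were at 172.5 to 465 FPKM, CDH1 was at 1.5 to 2.31 FPKM and EPCAM was at 0.0851 to 0.304 FPKM. Leukocytes express many interferon genes. The 8 leukocyte markers summed to 0.761 to 1.61 FPKM in the knockdown libraries and to 0.575 to 1.42 FPKM in the controls, and MS4A1 was listed at 0. CD14 was at 0.217, 0.49 and 0.19 FPKM in the knockdown libraries, against 0.127, 0.143 and 0.179 FPKM in the controls. It was the only leukocyte marker with every knockdown value above every control value. The 6 endothelial and fibroblast markers summed to 6.6 to 7.58 FPKM in the knockdown libraries and to 4.63 to 5.83 FPKM in the controls, nearly all of it PECAM1, which was higher (adjusted p = 0.0373). The other 5 were under 1 FPKM in every library. Of these, DCN was at 0.102, 0.164 and 0.25 FPKM in the knockdown libraries, against 0.0055, 0.0376 and 0.0059 FPKM in the controls, and COL1A1 was at 0.0727, 0.172 and 0.0718 FPKM in the knockdown libraries, against 0.0142, 0 and 0.0075 FPKM in the controls. PECAM1, DCN, COL1A1 and CDH5 each had every knockdown value above every control value, and VWF did not. The part of these markers in the results below was not tested.

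Of the 54 interferon genes, 35 reached at least 1 FPKM in at least 3 libraries and were tested, and 19 were below that level. Each of the 35 reached 1 FPKM in at least 1 library of both groups. Among the 35, 10 were higher in the knockdown (28.6%), where 12.6% of all 12191 tested genes were higher. Only IFNGR1 and IRF3 were lower (5.71%), where 12.5% of all tested genes were lower. A gene is called where its limma p, adjusted by Benjamini-Hochberg over all tested genes, is under 0.05. The median log2 fold change of the 35 genes was 0.14, with 25 above 0, against -0.01 over all tested genes. Fold changes are differences of mean log2(FPKM + 1), so the change of a gene with low levels is understated, and no test of the list was made. In 14 genes every knockdown value lay above every control value, and in 5 every one lay below. Over all tested genes 20.6% lay above in this way and 22.0% below. With a filter of 5 FPKM, 5 of 22 tested interferon genes were higher. In bulk RNA, more cells that express a gene and more of its RNA per cell cannot be told apart.

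**Figure D1:**
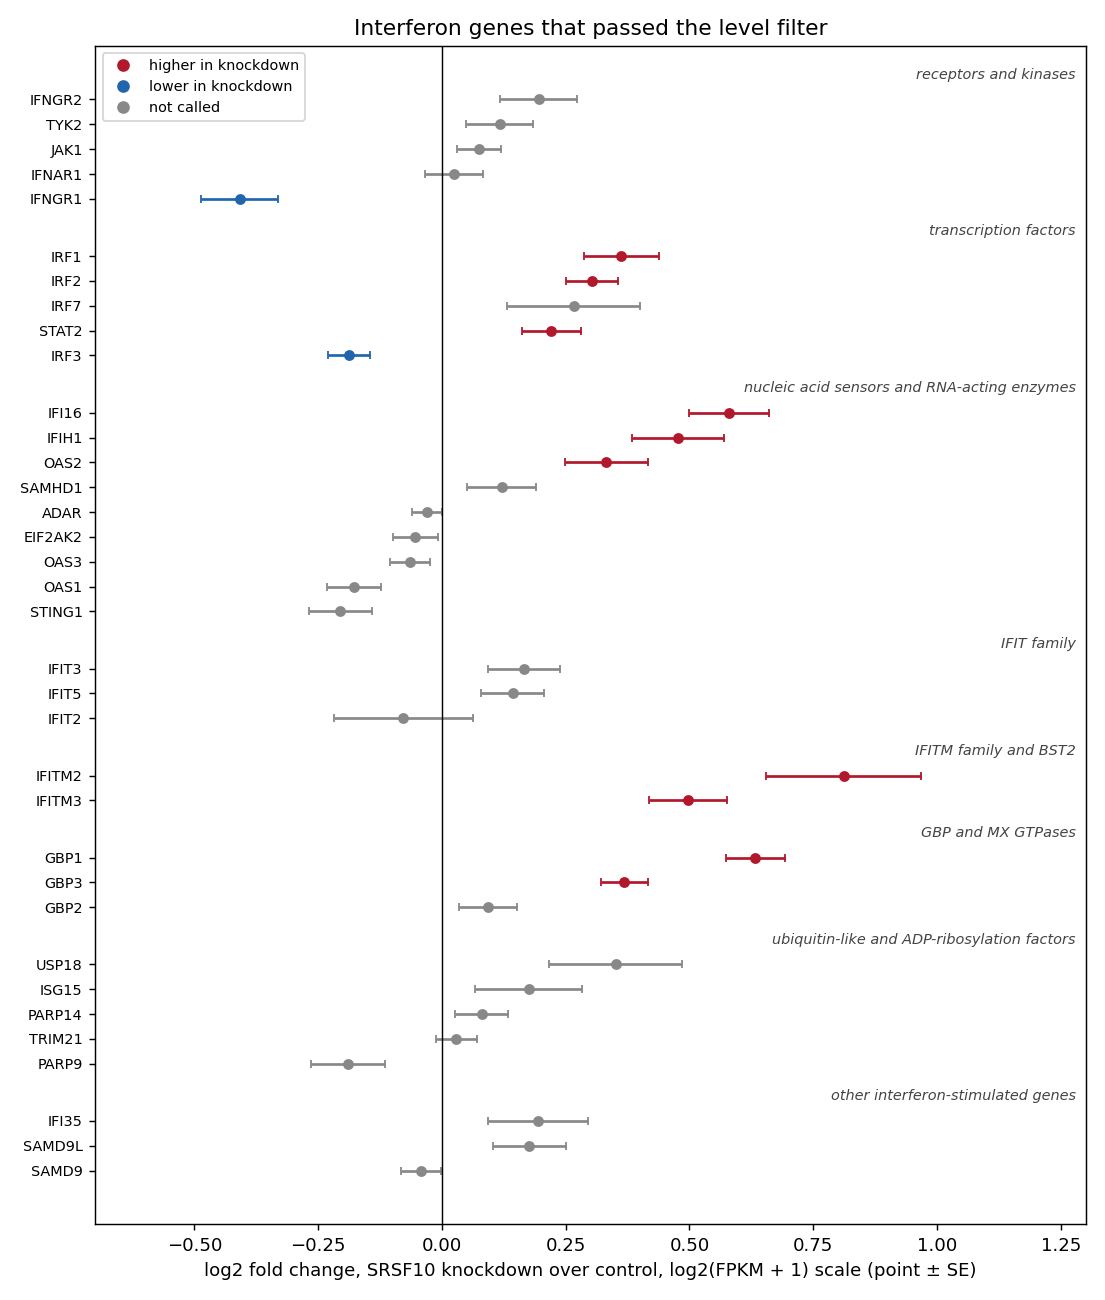
Log2 fold change of knockdown over control with its SE for each of the 35 interferon genes that passed the level filter, grouped by role, with called genes in colour. The values run between -0.41 for IFNGR1 and 0.81 for IFITM2, and the called genes lie in 5 of the 8 roles.

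Receptors and their kinases showed 1 change among the 5 of 7 tested, and it was downward. Of all tested genes, 12.5% were lower and 12.6% higher. IFNGR1, the ligand-binding chain of the type II interferon receptor (ENSG00000027697, chromosome 6, 137197484 to 137219449, minus strand), stood at 40.8, 40.6 and 35.9 FPKM in the knockdown libraries, against 57.4, 51.7 and 47.7 FPKM in the controls. All knockdown values lay below all control values, and the third control was the lowest of its group. The means were 39.1 ± 2.74 FPKM in the knockdown and 52.3 ± 4.9 FPKM in the controls (SD, n = 3 each), a log2 fold change of -0.41 (SE 0.078, adjusted p = 0.0108). IFNGR2, the signalling chain of the same receptor, was at 18.2 ± 1.77 FPKM in the knockdown and 15.7 ± 0.935 FPKM in the controls and did not pass the test (log2 fold change 0.20, adjusted p = 0.111). Without knockdown library 3 it passed, at an adjusted p of 0.034 (0.034 to 0.274 over the alternatives tried).

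The receptor for type I interferon did not show a called difference. IFNAR1 was at 9.32 ± 0.596 FPKM in the knockdown and 9.15 ± 0.487 FPKM in the controls, a log2 fold change of 0.02 whose sign turned in 2 of the fits that left out 1 library. IFNAR2 was at 0.387 to 0.441 FPKM in the knockdown libraries and 0.426 to 0.496 FPKM in the controls. It shares exon bases with the readthrough gene AP000295.1, and 41.3% of its 50-base windows occur in another gene, so its level depends on how such reads were counted. JAK1, the kinase that serves both receptors (chromosome 1, 64833229 to 64966504, minus strand), stood at 18.99, 19.7 and 18.7 FPKM in the knockdown libraries and at 19.1, 17.5 and 17.7 FPKM in the controls. The groups overlapped, and the log2 fold change was 0.08 (adjusted p = 0.274). TYK2, the partner of JAK1 at IFNAR1, was at 9.18 ± 0.37 FPKM in the knockdown and 8.4 ± 0.801 FPKM in the controls (log2 fold change 0.12, adjusted p = 0.26). JAK2, the partner of JAK1 at the type II receptor, stood just under the level filter, at 1.13, 0.988 and 1.07 FPKM in the knockdown libraries and 0.823, 0.931 and 0.909 FPKM in the controls.

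Transcription factors of the pathway changed in both directions: IRF1, IRF2 and STAT2 rose, and IRF3 fell, among 5 of 6 tested. Beside them, 12.6% of all tested genes were higher and 12.5% lower. IRF1, an activator of interferon-stimulated genes that type II interferon raises in many cells (chromosome 5, 132481609 to 132490798, minus strand), stood at 2.69, 2.39 and 2.93 FPKM in the knockdown libraries, against 1.84, 1.79 and 1.92 FPKM in the controls. The groups did not overlap, and the means were 2.67 ± 0.271 FPKM in the knockdown and 1.85 ± 0.064 FPKM in the controls. The log2 fold change was 0.36 (SE 0.0756, adjusted p = 0.0148). The call was lost without knockdown library 1 or 3, each with an adjusted p of 0.0516, and the range over the alternatives was 0.0118 to 0.0516.

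IRF2 binds the same DNA motif as IRF1 and can repress the genes that IRF1 activates (chromosome 4, 184387713 to 184474580, minus strand). It was at 9.96, 10.2 and 10.05 FPKM in the knockdown libraries, against 7.41, 8.04 and 8.46 FPKM in the controls. The knockdown values lay close together and above every control. The means were 10.1 ± 0.107 FPKM in the knockdown and 7.97 ± 0.532 FPKM in the controls, a log2 fold change of 0.30 (SE 0.0522, adjusted p = 0.00744). STAT2, the transactivating subunit of the complex formed after type I interferon (chromosome 12, 56341597 to 56360155, minus strand), stood at 8.92, 8.78 and 8.75 FPKM in the knockdown libraries, against 8.09, 7.4 and 6.82 FPKM in the controls. The groups did not overlap, with control 1 nearest to the knockdown. The log2 fold change was 0.22 (SE 0.0601, adjusted p = 0.0368). This call was lost without control library 2 or 3 and without any 1 of the knockdown libraries, at adjusted p-values of 0.0686 to 0.102, and with no filter on low levels (adjusted p = 0.095). The adjusted p ranged between 0.02 and 0.102 over the alternatives.

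IRF3, the factor that TBK1 phosphorylates after nucleic acid sensing and that starts transcription of interferon beta (chromosome 19, 49659569 to 49665875, minus strand), stood at 14.6, 14.1 and 15.1 FPKM in the knockdown libraries, against 17.4, 16.2 and 16.8 FPKM in the controls. Every knockdown value lay below every control value. The means were 14.6 ± 0.508 FPKM in the knockdown and 16.8 ± 0.573 FPKM in the controls, a log2 fold change of -0.19 (SE 0.0429, adjusted p = 0.0206). Without control library 1 or without knockdown library 1 or 2 the adjusted p was 0.0639, 0.0643 and 0.0738, and the range over the alternatives was 0.0142 to 0.0738. Exons of IRF3 overlap those of BCL2L12 on the other strand over 734 bases, and BCL2L12 itself was at 8.51, 8.95 and 10.8 FPKM in the knockdown libraries and at 9.67, 10.5 and 6.86 FPKM in the controls (adjusted p = 0.765). IRF7, which interferon itself raises and which widens the response, was at 1.31, 1.69 and 2.19 FPKM in the knockdown libraries and at 1.46, 1.11 and 1.19 FPKM in the controls. These groups overlapped (log2 fold change 0.27, adjusted p = 0.198). IRF9, the DNA-binding partner of STAT2, was at 0.308 ± 0.0901 FPKM in the knockdown and 0.356 ± 0.178 FPKM in the controls. It shares 1838 exon bases with the readthrough gene AL136295.5, and 43.6% of its windows occur elsewhere, so its level is uncertain.

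**Figure D2:**
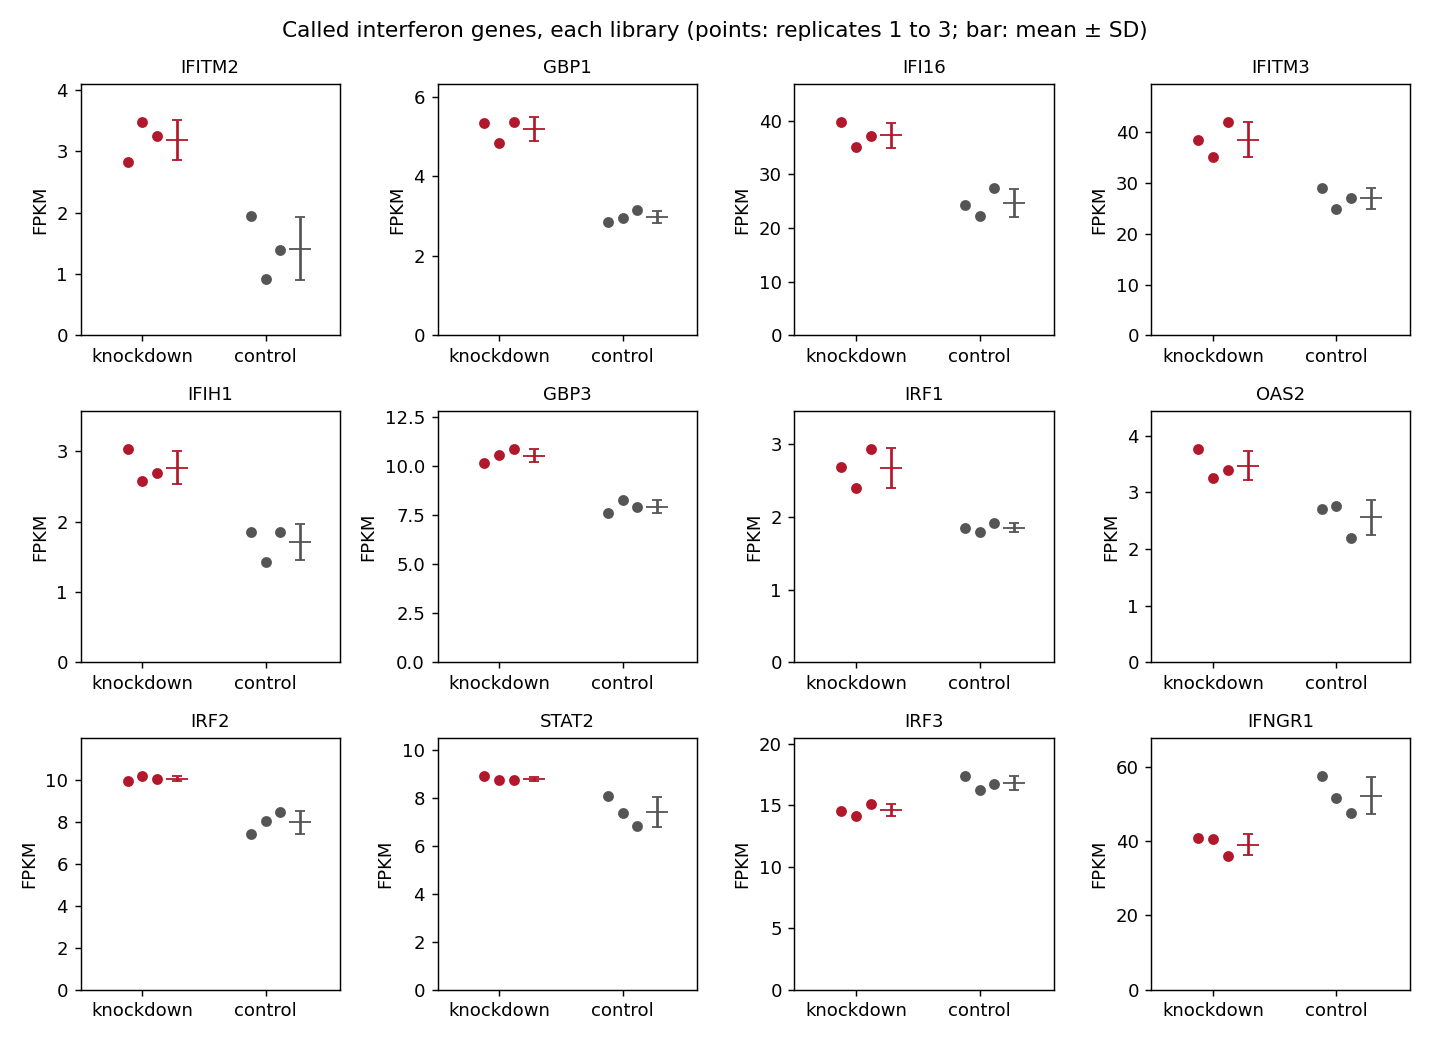
FPKM of each of the 12 called interferon genes in the 3 knockdown libraries (left in each panel) and the 3 control libraries (right), with the mean and SD beside the points and axes that start at 0. No panel shows overlap between the groups, with IFNGR1 and IRF3 as the 2 genes that lie lower in the knockdown.

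Sensors of nucleic acid and enzymes that act on RNA gave 3 higher and 0 lower genes among 9 of 13 tested, where 12.6% of all tested genes were higher and 12.5% lower. The median log2 fold change of the 9 was -0.03, against -0.01 over all tested genes. IFI16, a nuclear sensor of DNA (chromosome 1, 158999968 to 159055155, plus strand), was at 39.7, 35.1 and 37.1 FPKM in the knockdown libraries, against 24.3, 22.2 and 27.5 FPKM in the controls. The lowest knockdown value lay above the highest control value. The means were 37.3 ± 2.34 FPKM in the knockdown and 24.7 ± 2.65 FPKM in the controls, 1.51-fold higher, with a log2 fold change of 0.58 (SE 0.081, adjusted p = 0.00361). IFIH1, also called MDA5, a cytoplasmic sensor of long double-stranded RNA (chromosome 2, 162267079 to 162318703, minus strand), stood at 3.03, 2.58 and 2.69 FPKM in the knockdown libraries, against 1.86, 1.42 and 1.85 FPKM in the controls. Each knockdown value exceeded each control value, and the promoter is the one printed above with 3 matches. The log2 fold change was 0.48 (SE 0.0924, adjusted p = 0.0114), and the ratio of means was 1.62.

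OAS2, an oligoadenylate synthetase that double-stranded RNA switches on (chromosome 12, 112978395 to 113011723, plus strand), was at 3.76, 3.26 and 3.4 FPKM in the knockdown libraries, against 2.71, 2.76 and 2.2 FPKM in the controls. No control reached the lowest knockdown value, and the log2 fold change was 0.33 (SE 0.084, adjusted p = 0.0288). Leaving out any single library other than control 2 ended this call, with adjusted p-values of 0.0529 to 0.0922, as did using no filter on low levels (adjusted p = 0.0886). The range over the alternatives was 0.0257 to 0.0922. Its neighbours on chromosome 12 were not called. OAS3 (112938352 to 112973249) was at 27.9, 26.4 and 28.9 FPKM in the knockdown libraries and at 28.7, 29.1 and 29.3 FPKM in the controls. Those groups overlapped (log2 fold change -0.06, adjusted p = 0.294). OAS1 (112906777 to 112933222) was at 12.8, 12.7 and 13.7 FPKM in the knockdown libraries and at 14.2, 16.0 and 14.6 FPKM in the controls. Every knockdown value of OAS1 lay below every control value, yet it missed the threshold (log2 fold change -0.18, adjusted p = 0.0574).

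ADAR, the enzyme that edits adenosine to inosine in double-stranded RNA (chromosome 1, 154582057 to 154628013, minus strand), had the highest level of the 54 genes. It was at 93.5, 94.2 and 92.1 FPKM in the knockdown libraries and at 96.1, 96.6 and 93.1 FPKM in the controls, and the groups overlapped (log2 fold change -0.03, adjusted p = 0.508). EIF2AK2, the kinase PKR that halts translation when it binds double-stranded RNA, was at 16.9 ± 0.516 FPKM in the knockdown and 17.6 ± 0.798 FPKM in the controls (adjusted p = 0.439). SAMHD1, which cleaves deoxynucleotides, was at 3.86 ± 0.276 FPKM in the knockdown and 3.47 ± 0.273 FPKM in the controls (adjusted p = 0.259). STING1, the adaptor that passes on the DNA signal, was at 1.99, 1.96 and 2.19 FPKM in the knockdown libraries and at 2.58, 2.49 and 2.46 FPKM in the controls. Its groups did not overlap, and it too missed the threshold (log2 fold change -0.21, adjusted p = 0.055), which it passed in a fit without the variance trend (adjusted p = 0.026; range over the alternatives 0.026 to 0.152). CGAS, the DNA sensor upstream of STING1, was at 0.538 ± 0.074 FPKM in the knockdown and 0.46 ± 0.172 FPKM in the controls, under the level filter.

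The IFITM proteins, which sit in membranes and block entry of viruses, gave 2 higher genes, both of the 2 that could be tested among 3, beside the 12.6% of all tested genes that were higher. IFITM3 (chromosome 11, 319669 to 327537, minus strand) stood at 38.4, 35.2 and 42.0 FPKM in the knockdown libraries, against 29.1, 24.8 and 27.1 FPKM in the controls. The groups did not overlap. The means were 38.5 ± 3.44 FPKM in the knockdown and 27.0 ± 2.13 FPKM in the controls, 1.43-fold higher, with a log2 fold change of 0.50 (SE 0.0789, adjusted p = 0.0056). IFITM2 (chromosome 11, 307631 to 315272, plus strand) was at 2.82, 3.48 and 3.25 FPKM in the knockdown libraries, against 1.94, 0.918 and 1.39 FPKM in the controls. The control values were spread more widely than the knockdown values and lay below all of them. The log2 fold change of 0.81 (SE 0.156, adjusted p = 0.0111) was the largest of the 35 genes, and the ratio of means was 2.25. IFITM1, their close relative on the same cluster, was at 0.305, 0.392 and 0.335 FPKM in the knockdown libraries and at 0.0743, 0 and 0.158 FPKM in the controls, too low to test. The 3 genes are near copies: 34.1% of the windows of IFITM2, 32.0% of those of IFITM1 and 17.4% of those of IFITM3 occur in another gene, so how the counting divided their reads bears on each of the levels. BST2, or tetherin, which holds budding virus at the cell surface, was at 0.454, 0.133 and 0 FPKM in the knockdown libraries and at 0.126, 0 and 0 FPKM in the controls.

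Guanylate-binding proteins are GTPases that coat intracellular pathogens and are classic targets of type II interferon. They gave 2 higher genes among 3 tested, beside the 12.6% of all tested genes that were higher. GBP1 (chromosome 1, 89052319 to 89065360, minus strand) stood at 5.35, 4.83 and 5.36 FPKM in the knockdown libraries, against 2.85, 2.96 and 3.14 FPKM in the controls. The groups were widely apart relative to their spread. The means were 5.18 ± 0.3 FPKM in the knockdown and 2.98 ± 0.15 FPKM in the controls, 1.74-fold higher, with a log2 fold change of 0.63 (SE 0.0597, adjusted p = 0.000937), the smallest adjusted p of the list. GBP3 (chromosome 1, 89006666 to 89022894, minus strand) stood at 10.2, 10.6 and 10.9 FPKM in the knockdown libraries, against 7.6, 8.3 and 7.94 FPKM in the controls. Again the lowest knockdown value lay above the highest control value, and the log2 fold change was 0.37 (SE 0.0471, adjusted p = 0.00269). GBP2, which lies in the same cluster, was at 4.9, 4.6 and 4.75 FPKM in the knockdown libraries and at 4.57, 4.05 and 4.56 FPKM in the controls. Its lowest knockdown value lay just above the highest control value, and it did not pass the test (log2 fold change 0.09, adjusted p = 0.293). Of the windows of GBP1 9.62% occur in another gene, as do 10.2% of those of GBP2 and 4.76% of those of GBP3. GBP1 and GBP3 share windows with each other, so how the counting divided such reads bears on both levels. The antiviral GTPases MX1 and MX2 were under 0.25 FPKM in every library.

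**Figure D3:**
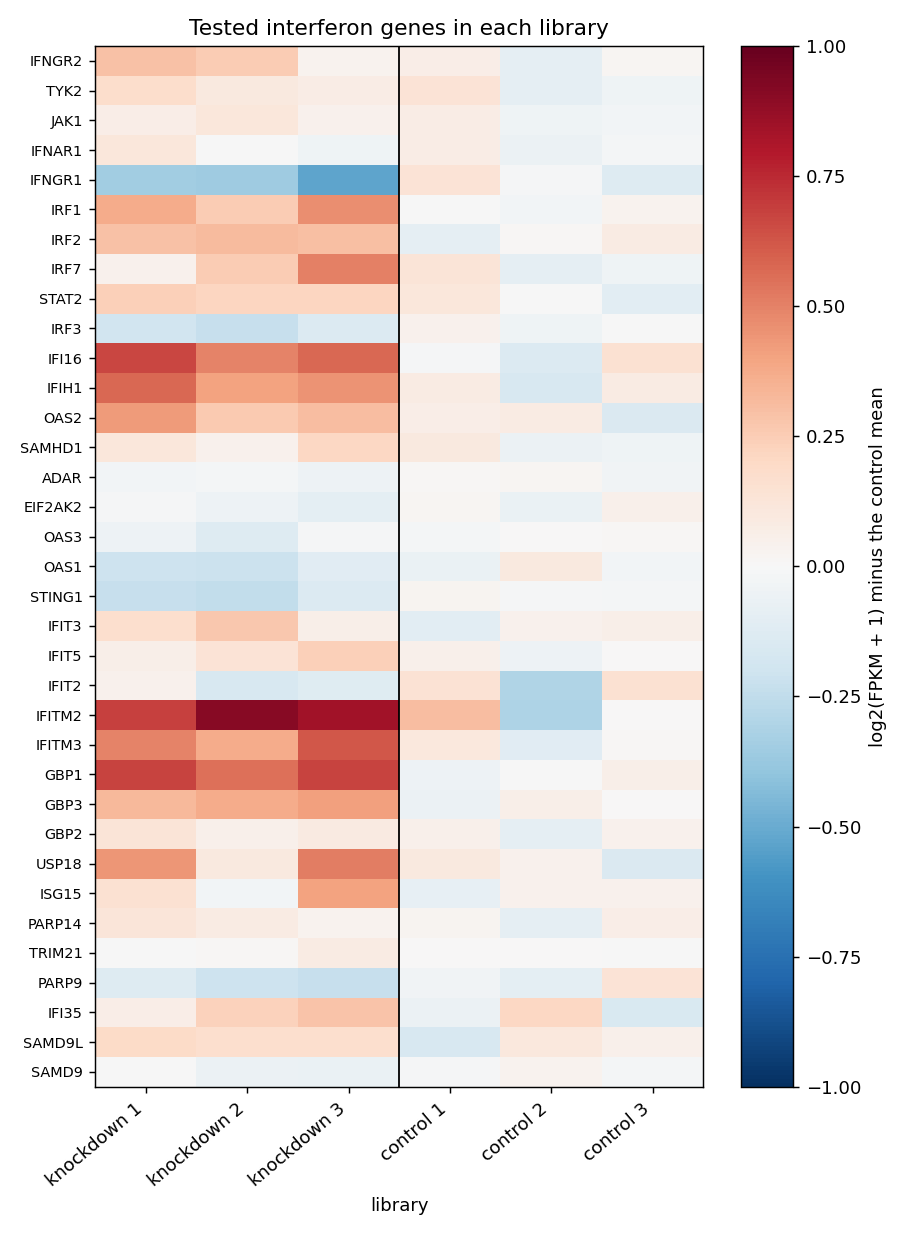
Each of the 35 tested interferon genes (rows) in each library (columns, knockdown 1 to 3 then control 1 to 3) as log2(FPKM + 1) minus the mean of the controls. Red fills the knockdown columns for IFITM2, GBP1, IFI16 and IFITM3, blue for IFNGR1, and most other rows are pale in all 6 columns.

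The IFIT proteins, which bind viral RNA ends, gave 0 called genes among 3 tested, with 1 further gene too low to test. With 12.6% of all tested genes higher and 12.5% lower, so few genes do not set the family apart. IFIT3 was at 6.67, 7.27 and 6.14 FPKM in the knockdown libraries and at 5.37, 6.05 and 6.14 FPKM in the controls. Its groups touched without overlapping, and the log2 fold change of 0.17 did not pass (adjusted p = 0.144). IFIT5 was at 4.19 ± 0.316 FPKM in the knockdown and 3.7 ± 0.166 FPKM in the controls (log2 fold change 0.14, adjusted p = 0.15). IFIT2 was at 1.47 ± 0.185 FPKM in the knockdown and 1.63 ± 0.445 FPKM in the controls (log2 fold change -0.08, adjusted p = 0.727). IFIT1, often used as a readout of type I interferon, was at 0.459 ± 0.0992 FPKM in the knockdown and 0.567 ± 0.156 FPKM in the controls.

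Ubiquitin-like and ADP-ribosylation factors also gave 0 called genes, among 5 tested, where 12.6% of all tested genes were higher and 12.5% lower. ISG15, a ubiquitin-like modifier and a standard interferon readout, was at 7.33, 6.35 and 8.94 FPKM in the knockdown libraries and at 6.1, 6.71 and 6.73 FPKM in the controls. The groups overlapped, knockdown 2 lying among the controls (log2 fold change 0.18, adjusted p = 0.286). USP18, the protease that removes ISG15 and dampens the type I receptor, was at 1.88, 1.27 and 2.02 FPKM in the knockdown libraries and at 1.27, 1.19 and 0.914 FPKM in the controls. Its log2 fold change of 0.35 was the largest among genes not called (adjusted p = 0.103), and it passed without knockdown library 2 (adjusted p = 0.0384; range over the alternatives 0.0384 to 0.267). A share of 23.4% of its windows occurs in another gene, among them the copy USP41. TRIM21, a ubiquitin ligase that binds antibody-coated virus, was at 8.99 ± 0.345 FPKM in the knockdown and 8.79 ± 0.045 FPKM in the controls (adjusted p = 0.656). PARP14 was at 13.0 ± 0.428 FPKM in the knockdown and 12.2 ± 0.754 FPKM in the controls (adjusted p = 0.32). PARP9 was at 3.88, 3.61 and 3.53 FPKM in the knockdown libraries and at 4.19, 3.97 and 4.86 FPKM in the controls. Every knockdown value of PARP9 lay below every control value, and it did not pass the test (log2 fold change -0.19, adjusted p = 0.111). Both PARP genes lie on chromosome 3, where 43.9% of 718 tested genes were lower and the median log2 fold change was -0.19. The part of that chromosome in their values was not tested. Of the other interferon-stimulated genes, IFI35, SAMD9 and SAMD9L were tested and 0 were called, with log2 fold changes of 0.19, -0.04 and 0.18.

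**Figure D4:**
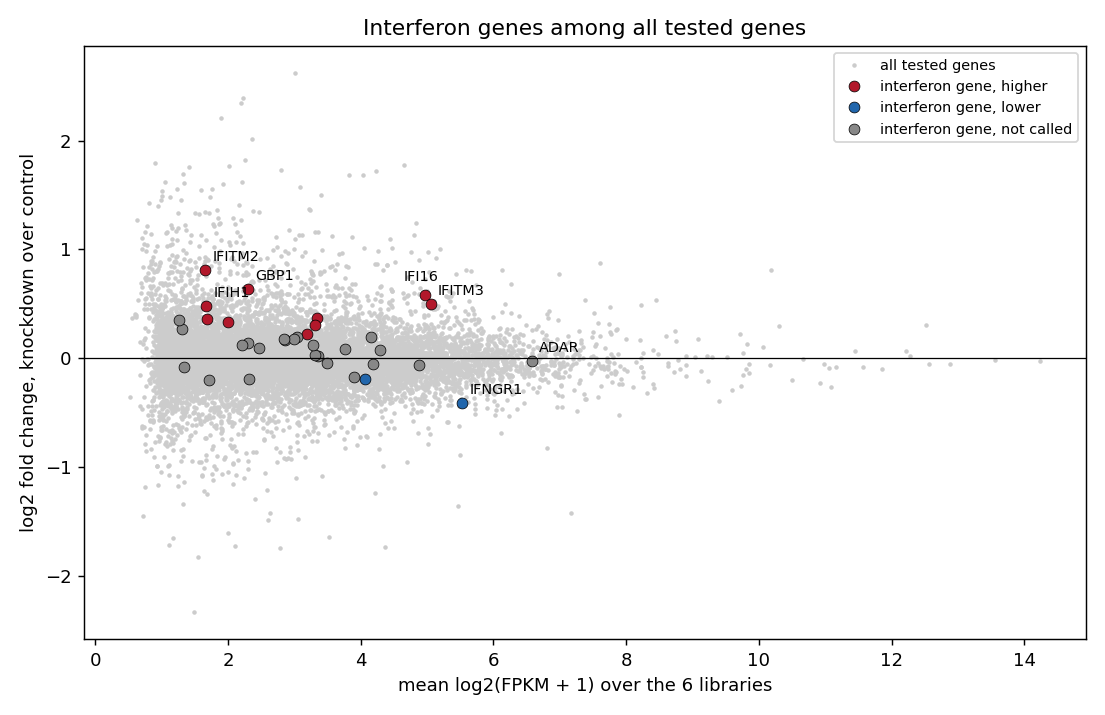
Log2 fold change of knockdown over control against mean log2(FPKM + 1) for all 12191 tested genes (grey) and the 35 tested interferon genes (large points, coloured where called). The interferon genes lie inside the cloud of all genes, and IFI16, IFITM3 and IFNGR1 are the called ones with means near or above 5 on the horizontal axis.

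Seen by library, the median level of the tested interferon genes was above the control mean in all 3 knockdown libraries, though control 1 came close to them in the count of genes. The median over the 35 genes of log2(FPKM + 1) minus the control mean was 0.12, 0.10 and 0.09 in knockdown libraries 1 to 3, with 25, 23 and 24 of the genes above it. Each control set against the mean of the other 2 controls gave 0.04, -0.05 and 0.00, with 22, 13 and 19 genes above. Over all 12191 tested genes the same median was -0.0107, -0.0081 and -0.0054 in the knockdown libraries and 0.0029, 0.0074 and -0.0065 in the controls. Knockdown library 2 held the highest value of its group in only 5 of the 35 genes, while libraries 1 and 3 held it in 15 each.

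Genes whose induction is a common sign of a type I interferon response were among the 19 below the level filter. Their mean levels over the 6 libraries lay between 0.0085 and 0.975 FPKM, and 6 of them were listed at 0 in at least 1 library. In 8 of the 19 (JAK2, IFI44, IFI44L, IFITM1, MX2, XAF1, TRIM22 and TLR3) every knockdown value lay above every control value, and in 0 did every one lie below. Among the 18118 genes under the filter in the same range of mean levels, every knockdown value lay above every control value in 7.36%. Those genes were not matched to the 19 by level within that wide range, so the share is only a rough background. With no filter, IFI44 was the 1 gene of the 19 that passed (log2 fold change 0.72, adjusted p = 0.0293), and in that fit 3.51% of 32280 genes were higher.

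IFI44, a cytoplasmic antiviral protein (chromosome 1, 78649796 to 78664078, plus strand), was at 1.23, 0.937 and 1.38 FPKM in the knockdown libraries, against 0.375, 0.193 and 0.398 FPKM in the controls. The groups were apart, and the ratio of means was 3.67. From gene length and estimated depth these levels stood for about 35, 26 and 35.9 fragments in the knockdown libraries and 11, 5 and 11 in the controls, few enough for counting error to weigh on each value. TLR3, the endosomal sensor of double-stranded RNA (chromosome 4, 186069152 to 186088069, plus strand), was at 0.191, 0.109 and 0.233 FPKM in the knockdown libraries, against 0.0103, 0.0117 and 0.0439 FPKM in the controls. That is about 18, 10 and 19.9 fragments in the knockdown libraries and 1, 1 and 4 in the controls.

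XAF1, an interferon-stimulated antagonist of XIAP, was at 0.151, 0.222 and 0.154 FPKM in the knockdown libraries, against 0.0631, 0.0119 and 0.0446 FPKM in the controls. IFI44L, the neighbour of IFI44, was at 0.0628, 0.1 and 0.0688 FPKM in the knockdown libraries, against 0, 0.023 and 0.0144 FPKM in the controls. MX2 was at 0.022, 0.017 and 0.012 FPKM in the knockdown libraries, about 4, 3 and 2 fragments, and was listed at 0 in every control. At these levels a library holds few fragments of each gene. In the other direction or without a split between groups stood RSAD2, the antiviral enzyme viperin, at 0.0151, 0 and 0 FPKM in the knockdown libraries and 0.0147, 0.0167 and 0.0156 FPKM in the controls. OASL was at 0.755 ± 0.225 FPKM in the knockdown and 0.925 ± 0.0692 FPKM in the controls. IFI6 was at 0.747 ± 0.39 FPKM in the knockdown and 0.676 ± 0.0875 FPKM in the controls, IFI27 at 0.278 ± 0.0962 FPKM in the knockdown and 0.213 ± 0.124 FPKM in the controls, and ISG20 at 0.386 ± 0.101 FPKM in the knockdown and 0.281 ± 0.0599 FPKM in the controls. MX1 was at 0.158, 0.222 and 0.0727 FPKM in the knockdown libraries and at 0.0888, 0.0913 and 0.0942 FPKM in the controls.

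**Figure D5:**
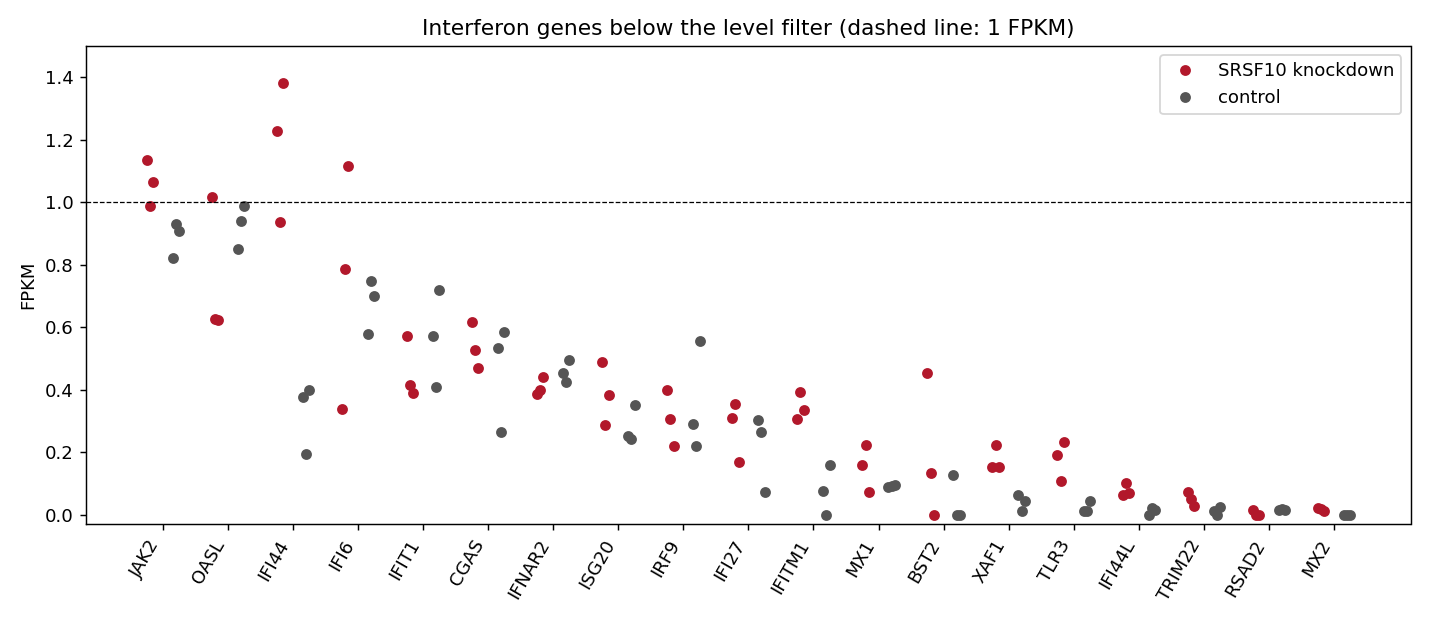
FPKM of the 19 interferon genes below the level filter in the 3 knockdown libraries (red, left of each name) and the 3 control libraries (grey, right), with a dashed line at 1 FPKM. IFI44 is the widest split, at 0.937 to 1.38 FPKM in the knockdown libraries and 0.193 to 0.398 FPKM in the controls, and IFIT1, OASL, IRF9 and RSAD2 overlap between groups.

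A second list of 91 other interferon pathway genes held changes in both directions. Of its 52 tested genes, 12 were higher (23.1%, against 12.6% of all tested genes) and 7 were lower (13.5%, against 12.5%), with a median log2 fold change of 0.06. The count of higher genes fell whichever library was left out. It was 4, 6 and 5 without knockdown library 1, 2 or 3. Without control library 1, 2 or 3 it was 6, 7 and 8. The count over all tested genes fell too, from 1542 to between 986 and 1344, and the cause was not tested. With no filter or a filter of 5 FPKM the count in the second list was 7. On the sensing side DDX58, also called RIG-I, the cytoplasmic sensor of short double-stranded RNA with a triphosphate end, was higher (log2 fold change 0.25, adjusted p = 0.0182). IKBKE, a kinase related to TBK1 that phosphorylates IRF3 and IRF7, was higher (0.35, adjusted p = 0.0041). MYD88, the adaptor of most Toll-like receptors but not of TLR3, was lower. It was at 11.3, 11.5 and 11.8 FPKM in the knockdown libraries, against 16.5, 14.6 and 17.8 FPKM in the controls. The groups did not overlap (log2 fold change -0.46, adjusted p = 0.00423), and MYD88 lies on chromosome 3, whose part in its value was not tested.

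Among signal transducers, STAT3, which answers to the interleukin-6 family, was higher (log2 fold change 0.25, adjusted p = 0.0189; 0.0535 with no filter, which ends the call), and PTPN6, the phosphatase SHP-1 that acts on JAK kinases, was lower (-0.29, adjusted p = 0.0096). Among effectors, the nuclear body protein SP110 (0.29, adjusted p = 0.0116), the secreted lectin ligand LGALS3BP (0.30, adjusted p = 0.0076) and TENT5A (0.30, adjusted p = 0.0128) were higher. Lower were ZC3HAV1, or ZAP, which binds CpG-rich viral RNA (-0.29, adjusted p = 0.00408), N4BP1, a ribonuclease (-0.45, adjusted p = 0.00379), the helicase MOV10 (-0.23, adjusted p = 0.0134) and PNPT1, the mitochondrial polynucleotide phosphorylase (-0.18, adjusted p = 0.017).

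The interferons in this second list were at 0 or below 1 FPKM. Of the alpha interferons it holds only IFNA1 and IFNA2, and the others were not looked up. Of the 91 genes, 18 were listed at 0 in all 6 libraries, among them IFNB1, IFNG, IFNL1, IFNL2 and IFNL3 and the chemokine targets CXCL9, CXCL10 and CXCL11. IFNA1 was at 0, 0.0837 and 0.0892 FPKM in the knockdown libraries, about 1 fragment in each of 2 of them, and was listed at 0 in every control. IFNE, a type I interferon of epithelia, was at 0.242, 0.498 and 0.478 FPKM in the knockdown libraries and at 0.189, 0.48 and 0.701 FPKM in the controls, with the groups overlapping.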

How the data were processed

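RNA-seq libraries of total RNA came from 3 samples labelled SRSF10 knockdown and 3 labelled WT. The authors deposited FPKM per gene, both per sample and as 1 combined table, with the same 60623 values in each. FastQC 0.11.9, Trim Galore 0.6.5-1 and the build GRCh38 are named, per the submitters' processing notes. Which aligner, counter, annotation and strand setting were used is not given in the sources used here, so reads of genes whose exons overlap cannot be told apart: 22 of the 54 interferon genes have such an overlap, 5 of them among the 12 called.

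Genes with at least 1 FPKM in at least 3 libraries were tested with limma 3.58.1 in R 4.3.3 on log2(FPKM + 1), with a variance trend, group as the only term and a two-sided p adjusted by Benjamini-Hochberg over all tested genes (threshold 0.05). Since FPKM are relative to a total, more of an abundant transcript means lower values elsewhere. Mitochondrially encoded genes held 27.5% to 29.7% of summed FPKM. Depth was estimated with GENCODE 29 exon lengths from low values, of which 86.1% to 86.9% of those up to 6.5 fragments came within 0.05 of a whole number, and it serves only as a description. The fit was tested on simulated data. Log2 values correlated across tested genes at 0.986 to 0.988 within groups and 0.971 to 0.976 between them. Python 3.11.15, pandas 2.3.3 and matplotlib 3.10.9 were used for tables and plots.

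Genes and lists were chosen with earlier results of these data known. The 54 were matched by symbol. Values of every library are given for called genes, for tested genes whose groups do not overlap with a log2 change of at least 0.3 in size, and for the 6 with the highest mean. Other genes shown library by library were chosen after their values were seen. From the second list, up to 6 called genes in each direction are named by smallest adjusted p. Positions are from GENCODE 29 on GRCh38. A window is any run of 50 bases in the transcripts of a gene. The percentages given are the share of a gene's windows that also occur in transcripts of another gene. Alternatives were no filter, a filter of 5 FPKM, a pseudocount of 0.1, median-of-ratios scaling, no variance trend, the replicate number as a block, and each library left out in turn.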

Additional observations from a re-analysis of the deposited data

How the results depend on the processing

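The log2 fold changes of all 12 called interferon genes kept their sign under each of the 12 alternatives in which they were tested, and 8 of the 12 genes kept their call in each of these. IRF1, IRF3, OAS2 and STAT2 did not, as given beside their values and, for the block, below. The interferon genes higher numbered 5 with a filter of 5 FPKM, where fewer genes are tested, and 7 to 10 when 1 library was left out. Those lower numbered 1 to 2 when 1 library was left out. Over all genes, leaving out 1 library gave 986 to 1344 higher and 975 to 1335 lower, both lowest without knockdown 3 (without knockdown 2, 997 lower), and no filter gave 1013 lower. In the second list the higher genes numbered 7 with no filter, 7 with a filter of 5 FPKM and 4 to 8 when 1 library was left out. The median log2 fold change of the tested interferon genes was 0.10 with no filter, 0.10 with a filter of 5 FPKM, 0.17 with a pseudocount of 0.1 and 0.10 to 0.15 when 1 library was left out. The log2 fold change of IFNAR1 was below 0 without control 2 (-0.0036) and without knockdown 1 (-0.0222), and ranged between -0.0222 and 0.0625 when 1 library was left out. Beyond those named in the text, IFI35 passed without control 2 (adjusted p = 0.0477) and OAS1 with a filter of 5 FPKM (adjusted p = 0.0399). The cause of these shifts was not tested. Deviations of same-numbered libraries correlated at 0.016, 0.057 and -0.071, and those of other-numbered libraries at -0.149 to 0.129. With 3 libraries per group these values cannot decide whether the numbers pair libraries, and the labels state no pairing. With the replicate number as a block, 1193 genes were higher and 1146 lower, and 9 interferon genes were higher and 2 lower, the call lost being that of STAT2 (adjusted p = 0.0545). Median-of-ratios scaling moved the median of all genes only to 0.00. The estimated depth leaves genes under about 0.1 FPKM with a handful of fragments, so counting error is large for them.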
